A study of Rattus norvegicus with 20 samples.

Results

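The 10 genes described here are the mitochondrially encoded respiratory chain genes Mt-nd1, Mt-nd2, Mt-nd3, Mt-nd4, Mt-nd5, Mt-cyb, Mt-co1, Mt-co2, Mt-co3 and Mt-atp6 of the rat. They were chosen by a fixed list of 10 Ensembl identifiers with these names, and all 10 were present among the 32623 identifiers of the deposited count table. No table used here pairs the identifiers with symbols, so the names rest on that list. All 10 passed the filter on low counts, and the tests ran over 12190 genes.

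The cells were adult hippocampal neural stem cells of the Fisher 344 rat, kept in basal medium with 0.5% fetal bovine serum, and Wnt/beta-catenin signalling was the pathway stimulated. Stimulated libraries came only from optoWnt cells, a population transduced with an optogenetic Wnt construct and selected with puromycin. They were exposed to light (4 libraries), to CHIR99021, a small-molecule inhibitor of GSK3 (5 libraries), or to 100 ng/mL Wnt3a protein (5 libraries). Stimulation was ON for 1, 3 or 5 d, or ON for 1 d and then OFF for 1 or 2 d. Light had no library at 5 d ON. Unstimulated optoWnt cells and unstimulated wild-type cells were sequenced at 0, 3 and 5 d (6 libraries). The titles of the unstimulated libraries at 3 and 5 d carry the word ON although their inducer is given as none. The labelled cell type was not checked against marker genes, since identifiers could not be tied to symbols. Each combination of genotype, inducer and profile was sequenced once, and the labels are silent on whether cultures were separate. All p-values thus reflect only how far these libraries differ among themselves, which may be technical.

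The mitochondrial genome is a small circular chromosome that codes for core subunits of complexes I, III, IV and V of oxidative phosphorylation, while complex II and most other subunits are coded in the nucleus. Its genes are transcribed as long precursors that are cut into single messenger RNAs, many of them at the transfer RNAs that lie between the genes. Mt-atp6 shares a transcript with Mt-atp8, and Mt-nd4 with Mt-nd4l, in mammals. Neural stem cells are known for strong use of glycolysis, and their neuronal progeny for greater reliance on oxidative phosphorylation.

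Libraries held 696463 to 5935681 reads. Light libraries detected 13478 to 14057 genes, CHIR99021 libraries 14776 to 15346, Wnt3a libraries 12093 to 15462 and unstimulated libraries 12789 to 15385. On the first principal component of all tested genes, which held 29.4% of the variance, 6 libraries stood apart with low scores. They were light at 3 d ON, CHIR99021 and Wnt3a at 1 d ON 2 d OFF, Wnt3a at 5 d ON, and unstimulated wild-type cells at 0 and 5 d. The 4 light libraries occupied neighbouring wells of a single plate column, so inducer and plate position cannot be told apart.

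The 10 genes together took between 0.676% and 3.64% of a library's reads. Light libraries held 0.676% at 1 d ON, 0.865% at 1 d ON 1 d OFF, 1.33% at 1 d ON 2 d OFF and 1.76% at 3 d ON. CHIR99021 libraries held 1.71%, 2.33%, 2.66% and 3.45% at these profiles and 2.46% at 5 d ON. Wnt3a libraries held 1.71%, 2.65%, 2.21% and 3.64% at these profiles and 1.54% at 5 d ON. Within each inducer, 3 d ON gave the highest share, and the lowest libraries of all were light at 1 d ON and at 1 d ON 1 d OFF. Unstimulated optoWnt cells held 1.95% at 0 d, 1.07% at 3 d and 2.22% at 5 d, and unstimulated wild-type cells 1.49%, 2.67% and 2.26%. The widest 95% Wilson interval extended 0.0304 percentage points to a side, for counting error only, so counting error was small beside the range over libraries. In these bulk samples, fewer cells of a type and less RNA per cell cannot be told apart.

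**Figure D1:**
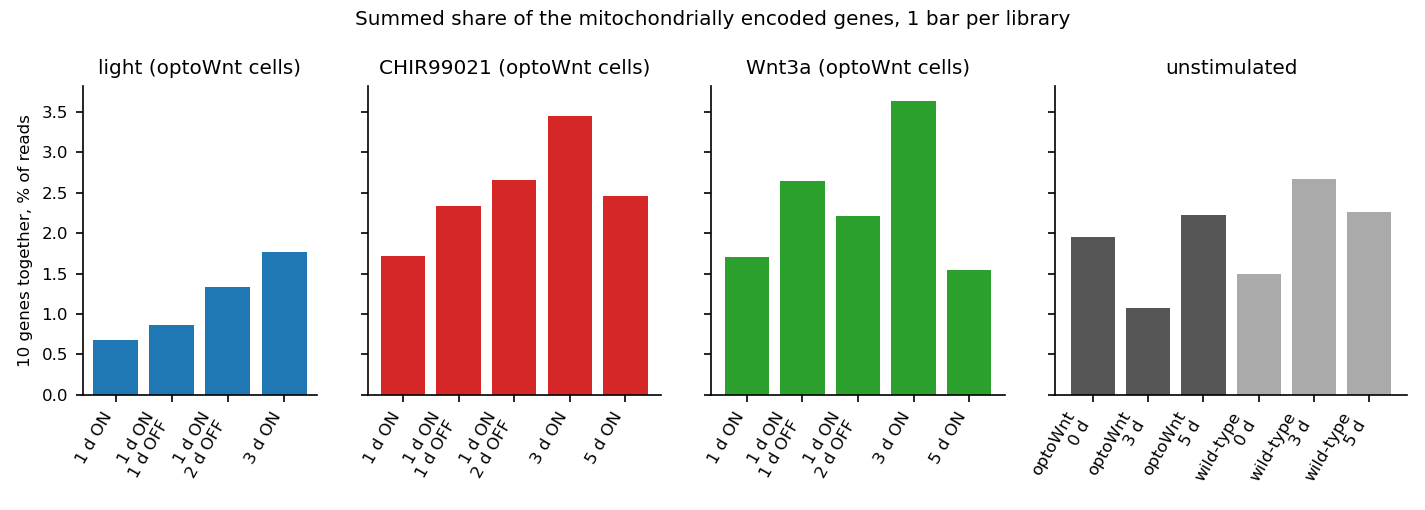
Summed reads of the 10 mitochondrially encoded genes as a percentage of all reads of a library, 1 bar per library, grouped by inducer and profile. Light bars run from 0.676% to 1.76%, and each is below the CHIR99021 and Wnt3a bars of the same profile.

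Levels are given as CPM, reads of the gene over total reads of the library, brought to the same total in every library. Reads come from 3′ ends, so they were not scaled to transcript length. Mt-atp6 (ENSRNOG00000031979), whose product lines the proton path of ATP synthase, had the highest median over the 20 libraries, 5084 CPM, and was the most abundant of the 10 in 18 of 20 libraries. Mt-co3 (ENSRNOG00000030700) had a median of 2977 CPM and Mt-co2 (ENSRNOG00000030371) of 2574 CPM, both core subunits of cytochrome c oxidase. Mt-co3 exceeded Mt-co2 only in libraries that stood apart on the first principal component. By median percentage of the reads of the 10 genes, Mt-co2 was above Mt-co3 (14.5% against 12.4%). No order of Mt-co2 and Mt-co3 is drawn. The next 4 lay close together, with medians of 1920 CPM for Mt-nd2 (ENSRNOG00000031033), 1795 CPM for Mt-co1 (ENSRNOG00000034234), 1743 CPM for Mt-cyb (ENSRNOG00000031766) and 1671 CPM for Mt-nd1 (ENSRNOG00000030644). Their ranges over libraries overlapped widely, so no order among these 4 stands beyond the spread. Mt-nd4 (ENSRNOG00000029707) had a median of 1434 CPM, Mt-nd3 (ENSRNOG00000033615) of 631 CPM and Mt-nd5 (ENSRNOG00000029971) of 348 CPM. These complex I subunits belong to the membrane arm that pumps protons.

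Most of the genes shared their extremes. Light at 1 d ON was the lowest library for 8 of the 10 genes, light at 1 d ON 1 d OFF for Mt-nd3, and Wnt3a at 5 d ON for Mt-co2. Wnt3a at 3 d ON was the highest library for 7 of the 10. The spread of a gene over the 20 libraries, as an SD of log2 CPM, had a median of 0.72 over the 10 genes, of 0.56 over the 200 most abundant genes and of 0.72 over all tested genes. The 10 genes were logged without an added count, unlike the other sets. They ranked from 6 to 490 by median CPM among all genes, so most tested genes were less abundant. Over the same 20 libraries, Pearson's r between a gene's log2 CPM and that of the 10 summed ran from 0.82 (Mt-co2) to 0.96 (Mt-nd1) for 9 genes and was 0.43 for Mt-nd5. The sum contains each gene and the libraries differ in depth, so these values are a description.

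The make-up of the mitochondrial reads changed between libraries as well as their sum. Mt-co2 supplied from 4.94% of them in Wnt3a at 5 d ON to 19.4% in CHIR99021 at 3 d ON. Mt-co2 also had the widest spread of the 10 genes, 9.26-fold between its lowest and highest library. Mt-atp6 ranged from 15.7% in Wnt3a at 3 d ON to 39.0% in wild-type cells at 0 d, and Mt-co3 from 7.50% in optoWnt cells at 0 d to 21.9% in Wnt3a at 5 d ON. Mt-cyb, the only subunit of complex III coded in the mitochondrion, took 23.1% in wild-type cells at 5 d, against a median of 9.96%. It was the most abundant of the 10 in that library, as Mt-co2 was in Wnt3a at 3 d ON.

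The balance between Mt-co2 and Mt-atp6 moved with the 6 libraries that stood apart. The ratio of their reads was 0.173 in Wnt3a at 5 d ON, 0.177 in wild-type cells at 0 d, 0.272 in Wnt3a at 1 d ON 2 d OFF, 0.430 in CHIR99021 at 1 d ON 2 d OFF, 0.536 in wild-type cells at 5 d and 0.603 in light at 3 d ON. It lay between 0.479 and 1.23 in the other 14 libraries. The 4 lowest ratios thus all belonged to libraries with low scores, and 2 of the 6 lay inside the range of the rest. The part of RNA quality or library preparation in this was not tested.

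**Figure D2:**
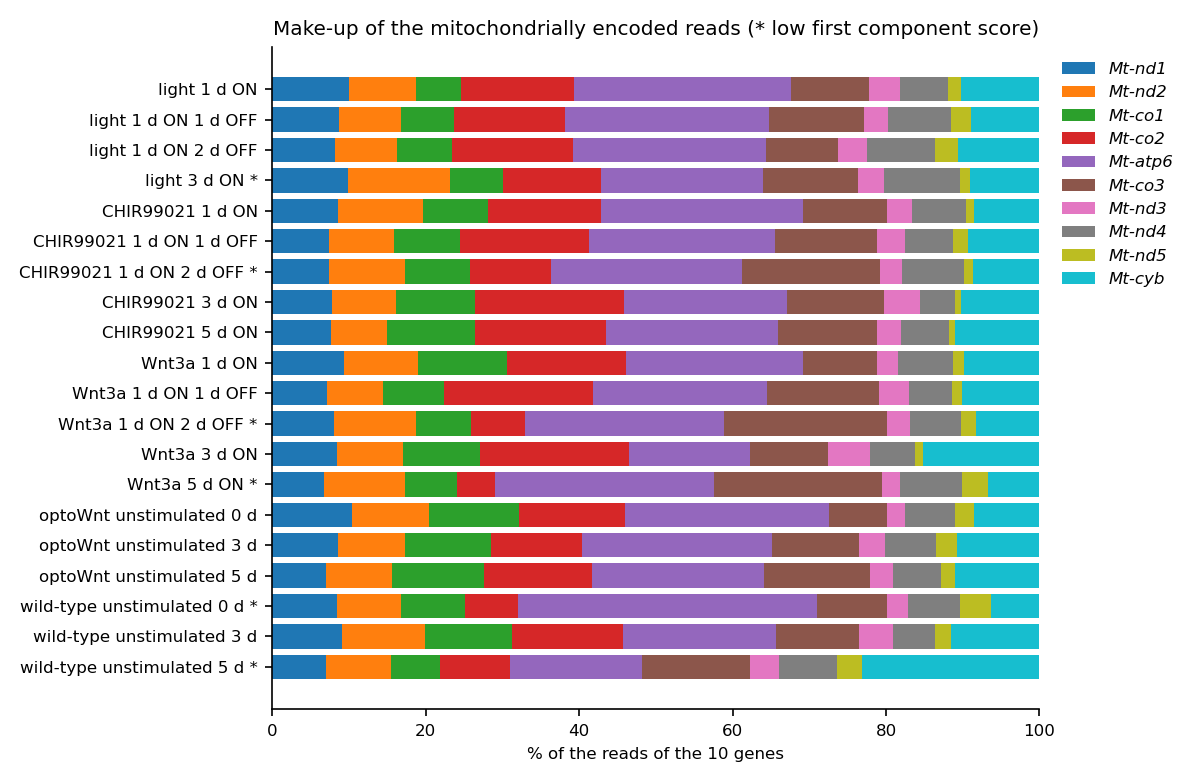
Make-up of the mitochondrial reads in each library: the x axis is the percentage of the reads of the 10 genes, 1 colour per gene, and an asterisk marks the 6 libraries with low first component scores. Mt-atp6 is the widest band in 18 of 20 libraries, Mt-co2 is narrowest in Wnt3a at 5 d ON (4.94%) and Mt-cyb widest in wild-type cells at 5 d (23.1%).

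Light was compared with each of the other inducers to ask whether the mitochondrial transcripts differed between ways of stimulating the same pathway. Mt-co1, Mt-co3 and Mt-atp6 were lower in light than in CHIR99021 and passed the test, and every one of the 10 estimates was below 0. The test was edgeR's quasi-likelihood test in an additive model of all 20 libraries (profile, genotype and inducer), and a gene is called where its Benjamini-Hochberg adjusted p over all tested genes is under 0.05. Of the 10 genes, 3 were called lower in light than in CHIR99021, where 0.952% of all tested genes were called lower and 0.443% higher. Most of the 10 varied together over the libraries, so counts out of the 10, here and below, are not counts of independent results. The median log2 fold change was -1.19 over the 10 genes and 0.02 over all tested genes.

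The cytochrome c oxidase subunits had the 3 most negative estimates. Mt-co1, which holds the haem and copper centre where oxygen is reduced, had 402, 595, 955 and 1221 CPM in light at 1 d ON, 1 d ON 1 d OFF, 1 d ON 2 d OFF and 3 d ON. It had 1454, 2003, 2239 and 3568 CPM in CHIR99021 at the same profiles. Every light library was below every CHIR99021 library. Its log2 fold change was -1.69 (SE 0.37, adjusted p = 0.0376, edgeR), with means of 793 ± 366 CPM in light and 2316 ± 897 CPM in CHIR99021 (SD, n = 4 each).

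Mt-co3, a core subunit that does not carry a metal centre, had 684, 1069.8, 1249 and 2174 CPM in light at those profiles, against 1866, 3106, 4776 and 4334 CPM in CHIR99021. Light was lower at each profile, but the highest light library exceeded the lowest CHIR99021 library, so the ranges overlapped. The log2 fold change was -1.43 (SE 0.26, adjusted p = 0.0187, edgeR). Mt-co2, which takes electrons from cytochrome c, was lower in every light library than in every CHIR99021 library, with 996 to 2242 CPM in light and 2508 to 6706 CPM in CHIR99021 at the 4 shared profiles. It was not called (log2 fold change -1.39, SE 0.50, adjusted p = 0.179, edgeR).

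Mt-atp6 had 1908, 2300.2, 3357 and 3719 CPM in light, against 4523, 5663, 6588 and 7328 CPM in CHIR99021, in the same order of profiles. Its ranges did not overlap either. The log2 fold change was -1.11 (SE 0.24, adjusted p = 0.0327, edgeR). Non-overlap in the lower direction thus held for Mt-co1, Mt-co2 and Mt-atp6, 3 of the 10 genes, against 4.38% of all tested genes.

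The complex I genes and Mt-cyb were not called, and had estimates in the same direction. The log2 fold changes in light against CHIR99021 were -1.25 for Mt-nd3 (adjusted p = 0.0603), -1.16 for Mt-nd2 (0.0753), -1.01 for Mt-nd1 (0.0887), -0.79 for Mt-nd4 (0.180) and -0.30 for Mt-nd5 (0.643), with SEs of 0.28 to 0.31. Mt-cyb, the cytochrome b at the centre of complex III, had -1.22 (SE 0.36, adjusted p = 0.109, edgeR). Without adjustment, 9 of the 10 genes had p under 0.05 in the lower direction, all but Mt-nd5, against 8.12% of all tested genes. Profile by profile, 8 of the 10 genes were lower in light than in CHIR99021 at all 4, against 13.8% of all tested genes. The exceptions were Mt-nd4, with 1761 CPM in light and 1542 CPM in CHIR99021 at 3 d ON, and Mt-nd5, with 404 CPM in light and 309.9 CPM in CHIR99021 at 1 d ON 2 d OFF.

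**Figure D3:**
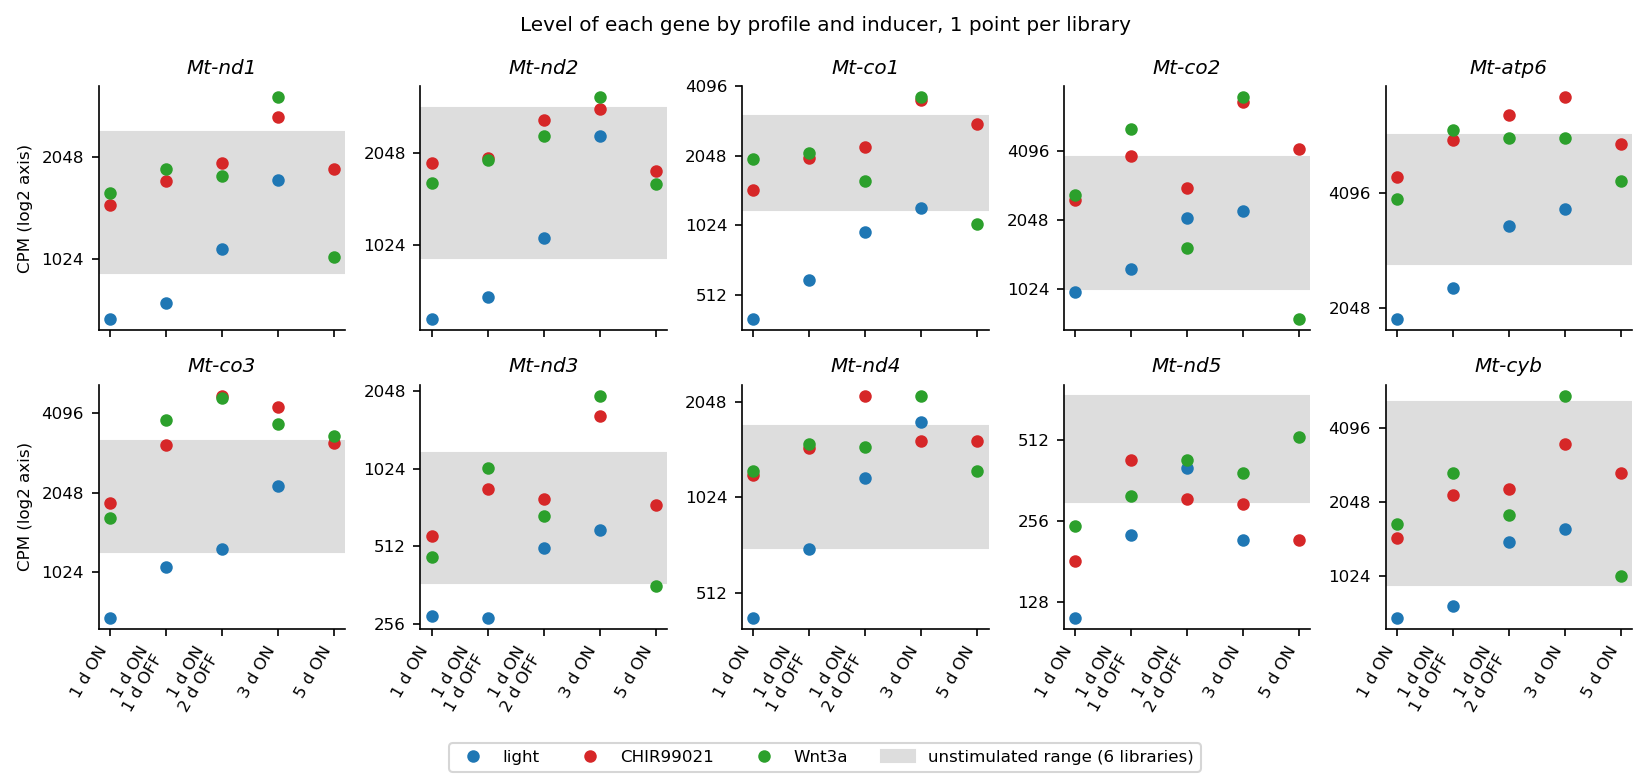
Level of each of the 10 genes (CPM, log2 axis) by profile, 1 point per stimulated library coloured by inducer, with the range of the 6 unstimulated libraries shaded. Light is the lowest of the 3 inducers at 1 d ON in all 10 panels, and Mt-nd4 at 3 d ON shows light above CHIR99021 (1761 against 1542 CPM).

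The summed share averaged 1.16% ± 0.487 in light and 2.54% ± 0.722 in CHIR99021 at the 4 shared profiles (SD, n = 4 each). The difference was -1.38 percentage points, with an SD of 0.273 over the 4 differences, and light was lower at each profile. The ratio of light to CHIR99021 was 0.395 at 1 d ON, 0.371 at 1 d ON 1 d OFF, 0.502 at 1 d ON 2 d OFF and 0.511 at 3 d ON.

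The number of calls in light against CHIR99021 depended on single libraries. It was 0 without light at 1 d ON, light at 1 d ON 1 d OFF, CHIR99021 at 1 d ON or CHIR99021 at 3 d ON. It was 1 without light at 3 d ON, CHIR99021 at 1 d ON 1 d OFF, CHIR99021 at 1 d ON 2 d OFF or Wnt3a at 1 d ON 2 d OFF, and 2 without Wnt3a at 1 d ON 1 d OFF. In the fits with 0 of the 10 called, calls over all tested genes also fell, from 170 in the main fit. They were 70, 9, 32 and 6, in the order given above. The median log2 fold change of the 10 genes was -1.13, -1.08, -1.18 and -1.31 in those fits. With the 6 libraries that stood apart left out together, 4 genes were called (Mt-nd2, Mt-co1, Mt-co2 and Mt-co3). DESeq2 called 7 of the 10. For DESeq2 and for fits without those 6 libraries, the share of all tested genes called is not given, here and below. Over all 26 alternative settings, the estimates stayed between -1.94 and -1.52 for Mt-co1, between -1.34 and -1.04 for Mt-atp6 and between -1.64 and -1.30 for Mt-co3.

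Against Wnt3a, the 10 estimates in light were again all below 0, but none passed the adjusted test. The log2 fold changes ran from -1.44 (Mt-co1) to -0.69 (Mt-nd5), with a median of -0.98 over the 10 genes and 0.00 over all tested genes, and adjusted p from 0.117 (Mt-co3) to 0.498 (Mt-co2). edgeR called 0 of the 10 and DESeq2 called 4 (Mt-nd2, Mt-co1, Mt-atp6 and Mt-co3). Of all tested genes, edgeR called 0% lower and 0.0082% higher. At an unadjusted p under 0.05, 9 of the 10 were lower, against 5.11% of all tested genes.

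Mt-co1 had 1990.1, 2096, 1601 and 3673 CPM in Wnt3a at 1 d ON, 1 d ON 1 d OFF, 1 d ON 2 d OFF and 3 d ON, all above the highest light library (1221 CPM). Mt-atp6 had 3953 to 6009 CPM in Wnt3a at those profiles, above the light range of 1908 to 3719 CPM. Mt-cyb had 693 to 1596 CPM in light and 1668 to 5527 CPM in Wnt3a. These 3 genes were the ones whose ranges did not overlap, against 2.23% of all tested genes. At all 4 profiles, 9 of the 10 genes were lower in light than in Wnt3a, against 8.88% of all tested genes, and the exception was Mt-co2, with 2099 CPM in light and 1559 CPM in Wnt3a at 1 d ON 2 d OFF.

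The summed share was lower in light than in Wnt3a at 4 of 4 profiles, by a mean difference of -1.39 percentage points (SD of the 4 differences 0.511). The light to Wnt3a ratio was 0.396 at 1 d ON, 0.327 at 1 d ON 1 d OFF, 0.603 at 1 d ON 2 d OFF and 0.484 at 3 d ON. The comparisons of light with CHIR99021 and with Wnt3a share the light libraries and are not independent of each other.

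Between CHIR99021 and Wnt3a no gene of the 10 passed the test. The log2 fold changes, CHIR99021 over Wnt3a, ran from -0.39 (Mt-nd5, SE 0.26) to 0.47 (Mt-co2, SE 0.44), with a median of 0.12. edgeR called 0 of the 10 (adjusted p 0.728 to 0.995), 0 had an unadjusted p under 0.05, and DESeq2 called 0. Of all tested genes, 0.0246% were called higher and 0.0082% lower by edgeR, and 4.22% were higher and 3.92% lower at an unadjusted p under 0.05. The summed share differed by 0.172 percentage points (SD of the 5 differences 0.506) and was lower in CHIR99021 at 2 of 5 profiles. Without the 6 libraries that stood apart this difference was -0.166, and it was -0.0140 without either library at 5 d ON, so its sign rests on that pair.

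The largest gap between CHIR99021 and Wnt3a was at 5 d ON, where the share was 1.60 times as high in CHIR99021. Mt-co2 had 4175 CPM in CHIR99021 and 759.9 CPM in Wnt3a there, while Mt-nd5 had 218 CPM in CHIR99021 and 527 CPM in Wnt3a. This Wnt3a library is among the 6 that stood apart, and a single library of each kind gives no test at 5 d.

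**Figure D4:**
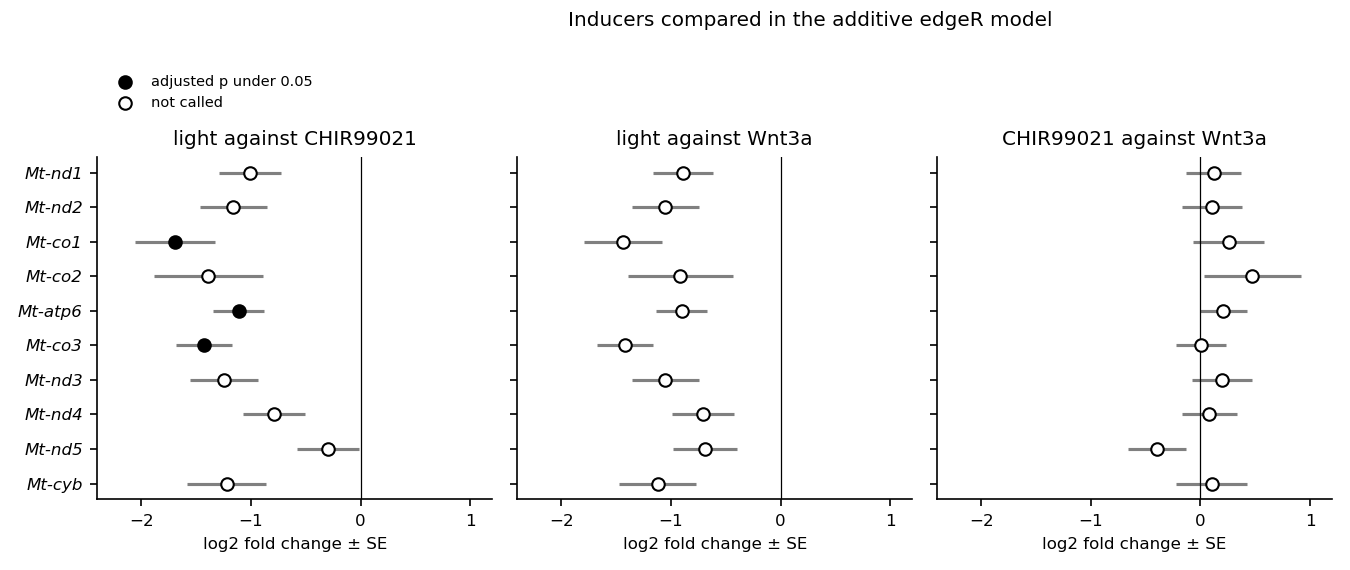
Log2 fold changes with SE bars for each gene in light against CHIR99021, light against Wnt3a and CHIR99021 against Wnt3a, from the additive edgeR model; filled points have an adjusted p under 0.05. All 10 points are below 0 in both light panels and 3 are filled (Mt-co1, Mt-atp6 and Mt-co3 against CHIR99021), while the panel of CHIR99021 against Wnt3a runs from -0.39 to 0.47.

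Libraries at 3 d and 1 d of constant stimulation were compared next. No unstimulated library was sequenced at 1 d, so the length of stimulation and the time in culture cannot be told apart here. All 10 genes had positive estimates, from 0.72 (Mt-atp6, SE 0.28) to 1.57 (Mt-nd3, SE 0.36) on the log2 scale. The median was 1.19 over the 10 genes, against 0.01 over all tested genes. None passed the adjusted test. edgeR called 0 of the 10 (adjusted p 0.125 to 0.442), where it called 0.0246% of all tested genes higher and 0% lower, while DESeq2 called 4 (Mt-nd2, Mt-co3, Mt-nd3 and Mt-cyb). At an unadjusted p under 0.05, all 10 were higher at 3 d ON, against 6.38% of all tested genes. Most of the 10 varied together over the libraries, so they are not 10 independent results.

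Mt-nd3, a small complex I subunit near the quinone site, had 592 CPM in light, 1639 CPM in CHIR99021 and 1963 CPM in Wnt3a at 3 d ON. At 1 d ON it had 274 CPM in light, 562 CPM in CHIR99021 and 467 CPM in Wnt3a. All 3 libraries at 3 d ON were above all 3 at 1 d ON (log2 fold change 1.57, SE 0.36, unadjusted p = 0.000606, adjusted p = 0.146, edgeR). Mt-co3 had 2174 CPM in light, 4334 CPM in CHIR99021 and 3740.0 CPM in Wnt3a at 3 d ON. At 1 d ON it had 684 CPM in light, 1866 CPM in CHIR99021 and 1633 CPM in Wnt3a. The 3 d libraries were again all higher (log2 fold change 1.37, SE 0.30, adjusted p = 0.125, edgeR).

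Mt-nd1, Mt-nd2 and Mt-nd4 also did not overlap, which made 5 of the 10 genes higher without overlap, against 9.96% of all tested genes. The ranges of Mt-co1, Mt-co2, Mt-atp6, Mt-nd5 and Mt-cyb overlapped, since light at 3 d ON lay below the CHIR99021 or Wnt3a library at 1 d ON. Under each inducer taken alone, all 10 genes were higher at 3 d ON, against 19.7% of all tested genes with that pattern. The median log2 ratio of the 10 genes was 1.28 in light, 1.04 in CHIR99021 and 0.94 in Wnt3a. The ratio was largest in light for Mt-nd1, Mt-nd2, Mt-nd4, Mt-nd5, Mt-co1, Mt-co3 and Mt-atp6, and in Wnt3a for Mt-nd3 and Mt-cyb. Light at 3 d ON is among the 6 libraries that stood apart. Without those 6, 3 genes were called (Mt-co2, Mt-nd3 and Mt-cyb).

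**Figure D5:**
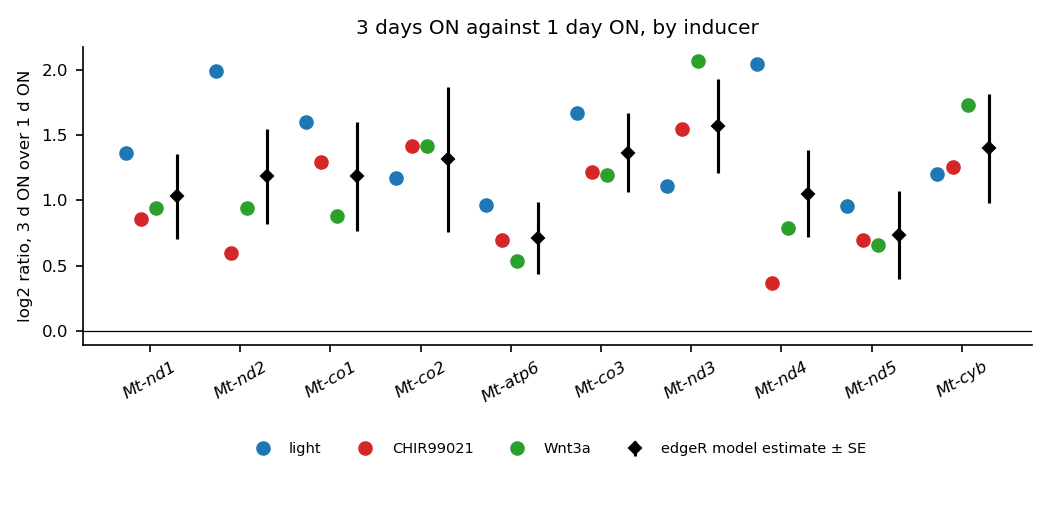
Log2 ratio of CPM at 3 d ON over 1 d ON for each gene, 1 coloured point per inducer, with the edgeR estimate over inducers and its SE as a black diamond. Every coloured point lies above 0, and the estimates run from 0.72 (Mt-atp6) to 1.57 (Mt-nd3).

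At 5 d ON, most of the genes were below their 3 d ON level under both inducers sequenced at 5 d. The median log2 ratio of 5 d ON over 3 d ON was -0.45 in CHIR99021 and -1.26 in Wnt3a, and 9 of the 10 genes were lower in both. Of all tested genes, 37.8% were lower in both, and no test was run on this step. The exception was Mt-nd5, with 527 CPM at 5 d ON and 387 CPM at 3 d ON in Wnt3a.

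Withdrawal of the stimulus was followed after 1 and 2 d OFF. These libraries were taken later than those at 1 d ON, and no unstimulated library was sequenced at 1 or 2 d. Against 1 d ON, withdrawal and time in culture thus cannot be told apart. After 1 d OFF, 9 of the 10 genes were above their 1 d ON level under all 3 inducers, against 11.9% of all tested genes. The exception was Mt-nd3 in light, with 270.4 CPM at 1 d OFF and 274 CPM at 1 d ON. After 2 d OFF, 8 of the 10 were above 1 d ON under all 3, against 15.7% of all tested genes. The exceptions were Mt-co1 and Mt-co2 in Wnt3a. Mt-co2 had 1559 CPM after 2 d OFF, against 2640.5 CPM at 1 d ON, in a library that is among the 6 that stood apart.

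Set against constant stimulation at the same day, 3 d ON, the genes at 1 d ON 2 d OFF had a median log2 fold change of -0.56, from -1.02 (Mt-co2) to 0.46 (Mt-nd5). edgeR called 0 of the 10 and DESeq2 called 0, and edgeR called 0% of all tested genes in either direction. At an unadjusted p under 0.05 there was 1 gene, Mt-nd3, which was lower (log2 fold change -0.88, SE 0.36, adjusted p = 0.533, edgeR), against 4.09% of all tested genes lower. Under all 3 inducers, 6 of the 10 genes were lower at 1 d ON 2 d OFF than at 3 d ON and 1 was higher, against 13.4% lower and 11.2% higher of all tested genes. The gene that was higher under all 3 was Mt-nd5, with 404 CPM in light, 309.9 CPM in CHIR99021 and 433 CPM in Wnt3a at 1 d ON 2 d OFF. At 3 d ON it had 218 CPM in light, 296 CPM in CHIR99021 and 387 CPM in Wnt3a.

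Against unstimulated cells at 3 d, the withdrawn libraries had a median log2 fold change of 0.30 in the model, whose sign went against the group means for Mt-nd1, Mt-nd3, Mt-nd5 and Mt-cyb. edgeR called 0 of the 10, where it called 0% of all tested genes in either direction, and DESeq2 called 0. At an unadjusted p under 0.05 there was 1 gene, against 3.8% of all tested genes higher. It was Mt-co3, with 1249 CPM in light, 4776 CPM in CHIR99021 and 4700.4 CPM in Wnt3a, against 1215 CPM in optoWnt and 2892 CPM in wild-type cells (adjusted p = 0.636, edgeR). Whether the effect of withdrawal differed between inducers was tested as an interaction over the 12 stimulated libraries of 1 to 3 d. edgeR called 0 of the 10 (adjusted p 0.910 to 0.991), 0 had an unadjusted p under 0.05, and DESeq2 called 0. Of all genes in that model, 0% were called and 3.46% had an unadjusted p under 0.05.

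Sustained stimulation was compared with no stimulation at 3 and 5 d. The summed share averaged 2.57% ± 0.955 in the 5 sustained libraries and 2.06% ± 0.687 in the 4 unstimulated libraries (SD), a difference of 0.511 percentage points that is within the spread of either group. This difference is not adjusted for genotype or day. The sustained libraries were all optoWnt, while the unstimulated ones were optoWnt (1.07% at 3 d, 2.22% at 5 d) and wild-type (2.67% and 2.26%). Without the libraries that stood apart the difference was 1.19. That step took light at 3 d ON (1.76%) and Wnt3a at 5 d ON (1.54%) out of the sustained group, so no light library remained. It also took wild-type cells at 5 d (2.26%) out of the unstimulated group. For single genes the model's log2 fold changes ran from -0.22 (Mt-co1, SE 0.42) to 0.45 (Mt-co3, SE 0.30), with a median of 0.28. The model adjusts for genotype and extrapolates light to 5 d ON, and its sign went against the group means for Mt-co1 and Mt-cyb. Mt-co1 averaged 2465 ± 1262 CPM in sustained and 2084 ± 909 CPM in unstimulated libraries (SD, n = 5 and 4), so no direction is drawn for it. edgeR called 0 of the 10 (adjusted p 0.638 to 0.994), 0 had an unadjusted p under 0.05, and DESeq2 called 0. Of all tested genes, 0.123% were called higher and 0.0738% lower, and 4.99% were higher and 4.9% lower at an unadjusted p under 0.05.

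Each inducer was then set against the same unstimulated libraries at 3 and 5 d, in a model of those 9 libraries. The median log2 fold change of the 10 genes was -0.14 for light, which had a single library, 0.79 for CHIR99021 and 0.62 for Wnt3a. CHIR99021 had 9 positive estimates of 10, Wnt3a had 10 and light had 4. The sign went against the group means for Mt-nd5 in Wnt3a (457 CPM, against 499 CPM unstimulated). The same held for Mt-co3 in light (2174 CPM, against 2594 CPM unstimulated). edgeR called 0 of the 10 for each inducer, 0 had an unadjusted p under 0.05, and DESeq2 called 0. The shares of all tested genes called higher and lower were 0% and 0% for light, 0.908% and 0.83% for CHIR99021, and 0.00865% and 0% for Wnt3a. At an unadjusted p under 0.05 they were 3.07% and 3.85% for light, 5.38% and 6.55% for CHIR99021, and 2.48% and 2.39% for Wnt3a. The 3 comparisons share their unstimulated libraries.

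At the first day of stimulation the model's estimates against unstimulated cells at 0 d were below 0 for 9 of the 10 genes, though the group means of Mt-co2 ran the other way. With no unstimulated library at 1 d, the stimulus and the first day in culture cannot be told apart. Mt-nd5 had 112 CPM in light, 182 CPM in CHIR99021 and 246 CPM in Wnt3a at 1 d ON, against 478 CPM in optoWnt and 598 CPM in wild-type cells at 0 d. No stimulated library reached the unstimulated ones. The log2 fold change was -1.37 (SE 0.39, unadjusted p = 0.00337, adjusted p = 0.168, edgeR). Mt-atp6 was the other gene without overlap, with 1908 to 4523 CPM at 1 d ON and 5181 to 5821 CPM at 0 d. These 2 genes were also the 2 with an unadjusted p under 0.05, against 4.69% of all tested genes lower. edgeR called 0 of the 10 and DESeq2 called 0. Of all tested genes, 0.295% were called higher and 0.279% lower, and 14.8% were lower without overlap. Without the libraries that stood apart, 1 gene was called lower.

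In unstimulated cells no gene of the 10 was called by edgeR over time. At 3 d against 0 d, edgeR called 0 of the 10, 0 had an unadjusted p under 0.05 and DESeq2 called 0, where edgeR called 1.3% of all tested genes higher and 0.763% lower, and 7.49% were higher and 6.1% lower at an unadjusted p under 0.05. At 5 d against 0 d, edgeR again called 0 and DESeq2 called 1, where edgeR called 3.02% of all tested genes higher and 1.5% lower.

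At 5 d against 0 d, 2 genes had an unadjusted p under 0.05, both higher, against 10.6% of all tested genes higher. Mt-co3 had 3062 CPM in optoWnt and 3207 CPM in wild-type cells at 5 d, against 1459.7 CPM in optoWnt and 1361 CPM in wild-type cells at 0 d (log2 fold change 1.08, SE 0.37, adjusted p = 0.112, edgeR). Both genotypes were alike for this gene at 0 and 5 d. They were not at 3 d, with 1215 CPM in optoWnt and 2892 CPM in wild-type cells. Mt-cyb had 2464 CPM in optoWnt and 5221 CPM in wild-type cells at 5 d, against 1658 CPM in optoWnt and 943 CPM in wild-type cells at 0 d (log2 fold change 1.34, SE 0.52, adjusted p = 0.164, edgeR). Both wild-type libraries are among those that stood apart. Mt-co3, Mt-nd3, Mt-nd4 and Mt-cyb were higher at 5 d without overlap and Mt-atp6 lower, against 24.2% higher and 21.4% lower of all tested genes, shares that are large because each group has 2 libraries.

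Genotype was compared in the 6 unstimulated libraries. The wild-type libraries at 0 and 5 d are among those that stood apart on the first component, and no unstimulated optoWnt library is. Genotype is thus partly mixed with that split. The estimates, optoWnt over wild-type, were below 0 for 8 of the 10 genes, with a median of -0.42. Mt-nd5 had 478, 302 and 378 CPM in optoWnt cells at 0, 3 and 5 d, against 598, 566 and 749 CPM in wild-type cells. It was the only one of the 10 without overlap, against 4.89% of all tested genes lower without overlap (log2 fold change -0.82, SE 0.33, unadjusted p = 0.0269, adjusted p = 0.635, edgeR). edgeR called 0 of the 10, where it called 0% of all tested genes in either direction, and DESeq2 called 0. At an unadjusted p under 0.05, 3.77% of all tested genes were lower. The summed share differed most at 3 d, with 1.07% in optoWnt and 2.67% in wild-type cells.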

How the data were processed

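Messenger RNA 3′ ends were sequenced with Lexogen's QuantSeq kit for low input, per the labels' protocols. The authors deposited whole-number read counts per gene, not normalized. The submitters' processing notes name Bowtie2, Subread, featureCounts and the build Rnor_6.0; no source used here gives strand or multimapping settings, so reads of nuclear copies of mitochondrial genes, and of the overlapping Mt-atp8 and Mt-nd4l, may be counted with these genes. Coordinates and sequences of the genes were not used here. Counts were tied to libraries by the well in the labels, and 0 other per-sample columns were present. No row lacked a gene identifier.

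Counts were tested with edgeR 4.0.16 (R 4.3.3, limma 3.58.1; quasi-likelihood, TMM scaling, filterByExpr by profile). The additive model of 20 libraries had 11 coefficients (8 profiles, genotype, inducer coded to sum to 0) and 9 residual degrees of freedom, so profile estimates are means over inducers and light at 5 d ON is extrapolated. The sustained model (9 libraries, 11566 genes) left 3 and the interaction model (12 libraries, 11564 genes) 4 residual degrees of freedom. SE is the log2 fold change over the root of F. CPM and shares use total reads (logged CPM with a prior count of 2, except in the SDs of log2 CPM). A count of 0 would allow 3 counts in a library, and no gene here was at 0. The 16 pairs within profiles had a chi-square over degrees of freedom of at least 5.94; no library was counted as a repeat. The fits were tested on simulated data.

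Genes and lists were chosen with earlier results of these data known. All 10 genes are named throughout; of other genes, the 2 most and the 2 least like their sum. Lists of nuclear genes were not run, as 0 identifiers matched a symbol. Alternatives were DESeq2 1.42.0, total-read scaling, scaling without the 10 genes, no low-count filter, the first component as a covariate, no inducer term, no wild-type libraries, no libraries that stood apart, and each library left out.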

Additional observations from a re-analysis of the deposited data

How the results depend on the processing

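No paired analysis was possible because the labels carry no replicate numbers; libraries were matched by profile only, through the additive model and the differences within profiles. No single-gene estimate in the inducer comparisons with light or in 3 d against 1 d ON changed sign under the alternatives run. The number of the 10 genes called in light against CHIR99021 was 3, and 0 to 4 with single libraries left out. Calls over all tested genes were 170, and 6 to 167 with single libraries left out. The number of the 10 called was 7 with DESeq2, 8 without the low-count filter and 8 with the first component as a covariate. For these settings, here and below, the share of all tested genes called is not given. The counts are therefore not read as a result about the 10 genes. For light against Wnt3a it was 0, and 4 with DESeq2, 2 without the filter, 7 with the covariate and 1 without the 6 libraries that stood apart. For 3 d ON against 1 d ON it was 0, and 4, 2, 6 and 3 under the same settings. For unstimulated 5 d against 0 d it was 0, and 1 with DESeq2 and 2 with the covariate; for 1 d ON against 0 d it was 0, and 1 without the libraries that stood apart. Single-gene calls in the inducer comparisons and in 3 d against 1 d ON were the same in 720 cases, gained in 48 and lost in 22. The causes were not tested. The difference in summed share between withdrawn libraries (1 d OFF and 2 d OFF) and constantly stimulated ones (1 d ON and 3 d ON) was -0.149 percentage points. It changed sign, from -0.446 to 0.147 over the alternatives. These groups mix days, and the constant one joins means of 1.37% at 1 d ON and 2.95% at 3 d ON. At the same day, the mean share was 2.07% at 1 d ON 2 d OFF and 2.95% at 3 d ON. The difference in summed share of CHIR99021 against Wnt3a was 0.172 and also changed sign, from -0.166 to 0.294. That of sustained against unstimulated libraries, not adjusted for genotype, was 0.511 and ran from 0.183 to 1.19. Total-read scaling moved the median log2 fold change of all genes by 0.10 for 1 d ON against 0 d and by 0.11 for unstimulated 3 d against 0 d. Dropping the low-count filter moved it by -0.24 for sustained light. Leaving out unstimulated optoWnt cells at 5 d moved it by -0.18 for unstimulated 5 d against 0 d and by 0.10 for sustained against unstimulated libraries. The p-values rest on libraries that were each sequenced once.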

Other observations

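Among all tested genes, the log2 CPM most like that of the 10 genes summed, by Pearson's r over the 20 libraries, belonged to ENSRNOG00000018356 (r = 0.88) and ENSRNOG00000058589 (r = 0.86). The log2 CPM least like it belonged to ENSRNOG00000013992 (r = -0.89) and ENSRNOG00000012965 (r = -0.87). ENSRNOG00000018356 and ENSRNOG00000012965 had low levels, with means of 6.99 and 9.25 CPM and lowest libraries of 1.09 and 2.04 CPM. ENSRNOG00000058589 and ENSRNOG00000013992 had means of 56.6 and 140 CPM. These r values are extremes picked from all tested genes and are a description over libraries that differ in depth.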
